A study of Mus musculus with 2 samples.

Results

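Erythroid iron uptake and storage was followed through 8 genes of the 32285 in the count tables, taken by symbol from a list of named genes. All 8 were found once in the gene list of each library. Tfrc, Slc11a2 and Steap3 belong to iron uptake, Slc25a37 and Abcb10 to the import of iron into mitochondria, Fth1 and Ftl1 to iron storage, and Ireb2 to the regulation of iron uptake and storage.

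Developing red cells take up iron bound to transferrin through the transferrin receptor, reduce it in the endosome, release it into the cytosol and pass it to mitochondria, where it is built into heme. Iron that is not used is held inside ferritin, a shell of heavy and light chains. When iron is scarce, iron regulatory proteins bind stem-loops called iron-responsive elements, which keeps the transferrin receptor transcript from decay and holds back translation of the ferritin transcripts.

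The study asked what the RNA helicase DDX41 does in blood formation and whether the DNA sensor cGAS takes part. Femoral bone marrow of 1 control mouse and 1 double knockout (DKO) mouse was measured by single-cell RNA sequencing with the droplet-based Chromium 3' v3 kit, in which each captured transcript is counted once, at its 3' end, by a unique molecular identifier (UMI). Both mice were 2 months old. The control, labelled WT, was a littermate with Ddx41 fl/fl alleles, no VavCre and wild-type cGas, and the DKO mouse was VavCre:Ddx41 fl/fl with both cGas alleles knocked out (cGAS-/-). VavCre is active in blood-forming cells, and the paper also names its expression in oocytes and endothelial cells. Whether Ddx41 is intact in the other cells of the DKO mouse was not tested, whereas the cGas knockout is present in every cell. The loss of either gene alone was not sequenced, so their parts cannot be told apart. Each genotype has a single library, so how much mice vary could not be seen and nothing was tested. All intervals given in parentheses are 95% intervals that cover counting error only.

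The kept control cells numbered 18726 and held 119239857 UMIs, with a median of 4873 in a cell, against 13719 DKO cells with 114664975 UMIs and a median of 6900. Cells in clusters with erythroid marker genes, called erythroid-like, numbered 7658 in the control and 6381 in DKO cells, with 45383049 and 58604331 UMIs. They were divided into 5 stages by the share of a cell's UMIs that came from globin genes, which rises as red cells mature. The control library had 1009, 559, 1215, 3513 and 1362 cells in the stages under 15%, 15 to 40%, 40 to 75%, 75 to 90% and 90% or more, and the DKO library had 709, 495, 1209, 1389 and 2579. The 8 genes were left out of the clustering and of the stages. The cells of the libraries were called in different ways, since the control file holds every barcode and the DKO file only called cells, and 81 cell barcodes occur in both libraries. Levels are given in counts-per-million (CPM), the UMIs of a gene scaled to the UMIs of all genes in all cells of a stage or class, with exact Poisson intervals. Ratios have 1 UMI added to each count and carry exact binomial intervals. Levels of different genes are compared on this scale without a correction for length, taking each UMI as 1 transcript counted at its end. Whether intronic reads were counted is not stated. Slc25a37, Ftl1 and Fth1 share parts of their 3' ends with other genes, and the effect on comparisons between genes was not tested.

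Ddx41 had 2416 UMIs in the control and 916 in DKO cells, which is 20.3 and 7.99 CPM over all cells and a log2 ratio of DKO over control of -1.34 (-1.45 to -1.23). Cgas had 1615 and 830 UMIs, 13.5 and 7.24 CPM, with a log2 ratio of -0.90 (-1.03 to -0.78). In erythroid-like cells under 15% hemoglobin Ddx41 stood at 30.9 control and 18.2 DKO CPM, and from 75% hemoglobin on it had at most 12 UMIs in a stage of either library. Whether the counted 3' ends lie inside the deleted parts of these genes is not given in the sources, so the UMIs that remain in the DKO library do not check the alleles.

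The stages followed red cell maturation in both libraries. Car1, a carbonic anhydrase of early erythroid cells, fell from 2160.3 CPM in the lowest to 11.2 CPM in the highest control stage, and from 2169.9 to 3.39 CPM in the DKO library. Bpgm, which makes the regulator of oxygen release from hemoglobin, stood at 110.3 and 2347 CPM in the same control stages and at 61.5 and 1787 CPM in the DKO stages. Alas2, the first enzyme of heme synthesis in red cells, rose from 222 to 1481 CPM at 75 to 90% in the control and from 203 to 1562 CPM in the DKO library. The transcription factors Gata1 and Klf1 and the erythropoietin receptor gene Epor were low from 75% hemoglobin on, with Gata1 at 183 CPM in the control stage of 15 to 40% and 4.67 CPM at 75 to 90%. The libraries did not fill every stage alike. Slc4a1, the anion exchanger of the red cell membrane, stood at 516 control and 977 DKO CPM at 75 to 90% hemoglobin and at 129 and 292 CPM at 90% or more. Early genes did not agree at 75 to 90%, where Klf1 stood at 7.05 control and 11.4 DKO CPM, Gata1 at 4.67 and 7.34, Epor at 3.27 and 3.42 and Car1 at 15.6 and 8.71 CPM. Bpgm stood at 2838 control and 2033 DKO CPM in that stage, and cluster 37 made up 1.05% of control against 11.4% of DKO cells there. At 15 to 40%, cluster 16 gave 51.2% of the control cells, whereas cluster 27 gave 50.7% of the DKO and 28.3% of the control cells. The part of this difference in the ratios was not tested beyond the finer bins of hemoglobin given with them.

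Tfrc, the transferrin receptor, peaked at 15 to 40% hemoglobin in both libraries and was the uptake gene with the most UMIs in every stage. Its levels from the lowest to the highest stage were 432, 699, 515, 46.6 and 9.67 CPM in the control and 619, 916, 719, 126 and 6.97 CPM in the DKO library. DKO cells thus had the higher level in the 4 stages under 90% hemoglobin and the lower one at 90% or more, where counting per cell turned the log2 ratio to 0.15. The log2 ratios of DKO over control were 0.52 (0.45 to 0.59), 0.39 (0.33 to 0.45), 0.48 (0.43 to 0.54), 1.44 (1.32 to 1.56) and -0.48 (-0.90 to -0.04). The value at 75 to 90% is a 2.71-fold higher level in DKO and rests on 898 control and 1481 DKO UMIs, and the value at 90% or more on 69 control and 146 DKO UMIs. Within bins of 2.5 points of hemoglobin, weighted alike in both libraries, the ratio at 75 to 90% came to 0.91, and with stage limits of 10, 35, 70 and 92% to 0.97.

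Among the 11 other classes of at least 50 cells, Tfrc was highest in dendritic-like cells in both libraries. The dendritic-like class was the cluster led by Siglech, and a cluster led by Cd209a was left unnamed. Cells of unnamed clusters, 1392 control and 1206 DKO, are in none of the class orders. Free RNA, read from control barcodes of at most 100 UMIs, held 14.6 Tfrc UMIs per 10000 globin UMIs, and of the 11 control classes only dendritic-like and granulocyte-monocyte progenitor-like (GMP-like) cells held more, 43.9 and 42.0. In the other 9 classes, with 6.25 in macrophage-like and 8.25 in B cell-like cells among them, free RNA could thus hold all of the Tfrc UMIs, and the order of these levels need not be that of expression. In control classes Tfrc came, in CPM and falling order, to 174 in dendritic-like, 101 in macrophage-like, 60.0 in B cell-like, 57.6 in GMP-like, 45.5 in megakaryocyte-like, 41.4 in basophil or mast-like, 39.5 in stromal-like, 38.4 in cKit+ progenitor-like, 27.2 in T or NK cell-like, 20.4 in neutrophil-like and 17.8 in monocyte-like cells, with overlapping intervals between neighbours except below dendritic-like and macrophage-like cells. Tfrc in DKO classes came to 279.9 in dendritic-like, 111 in macrophage-like, 94.4 in B cell-like, 69.7 in stromal-like, 57.7 in GMP-like, 48.5 in cKit+ progenitor-like, 25.9 in monocyte-like, 21.2 in neutrophil-like, 19.8 in basophil or mast-like, 19.1 in T or NK cell-like and 15.1 in megakaryocyte-like cells, with overlapping intervals between neighbours except below dendritic-like and cKit+ progenitor-like cells. The 3 erythroid-like stages under 75% stood above all 11 other classes of at least 50 cells in each library, and the stage of 90% or more stood below them, with an interval that overlapped that of megakaryocyte-like cells in the DKO library. The stage of 75 to 90% lay among the classes, between GMP-like and megakaryocyte-like cells in the control and between dendritic-like and macrophage-like cells in the DKO library. Of the 11 other classes, 4 had a Tfrc log2 ratio of DKO over control with an interval above 0, which were B cell-like at 0.65 (0.50 to 0.81), dendritic-like at 0.69 (0.50 to 0.87), monocyte-like at 0.54 (0.24 to 0.83) and stromal-like at 0.83 (0.07 to 1.56). The basophil or mast-like and megakaryocyte-like classes had intervals below 0, on 16 and 9 DKO UMIs. Apart from dendritic-like cells, the classes with these ratios were not above free RNA in the control, so their ratios need not be those of expression.

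Slc11a2, which carries iron out of the endosome, was far less abundant and followed the same course. It stood at 57.7, 66.2, 31.3, 1.24 and 0.701 CPM in the control stages and 69.1, 75.3, 46.0, 1.79 and 0.430 CPM in the DKO stages, with overlapping intervals between the stages under 15% and of 15 to 40% in each library. The log2 ratios in the lower 3 stages were 0.26 (0.06 to 0.46), 0.18 (-0.03 to 0.40) and 0.55 (0.34 to 0.78), and the interval of 15 to 40% holds 0. From 75% hemoglobin on, the gene had 24 control and 21 DKO UMIs and then 5 control and 9 DKO UMIs, with ratios of 0.54 (-0.39 to 1.43) and -0.82 (-2.44 to 1.22), and no difference was detectable at this depth. The last value turned to 0.06 with only the barcodes above an order-of-magnitude threshold of UMIs. In control classes Slc11a2 came, in CPM and falling order, to 24.9 in T or NK cell-like, 16.7 in macrophage-like, 14.5 in cKit+ progenitor-like, 14.4 in B cell-like, 9.90 in basophil or mast-like, 9.88 in stromal-like, 8.51 in monocyte-like, 6.76 in GMP-like, 4.90 in megakaryocyte-like, 4.83 in dendritic-like and 0.755 in neutrophil-like cells, with overlapping intervals between neighbours except below dendritic-like cells. Slc11a2 in DKO classes came to 35.1 in macrophage-like, 23.8 in T or NK cell-like, 20.4 in cKit+ progenitor-like, 18.6 in stromal-like, 18 in B cell-like, 7.43 in basophil or mast-like, 5.64 in monocyte-like, 4.12 in dendritic-like, 3.91 in GMP-like, 1.67 in megakaryocyte-like and 0.665 in neutrophil-like cells, with the interval of each class overlapping that of the next. The erythroid-like stage of 40 to 75% overlapped the first class in each library. The class ratio had an interval above 0 in macrophage-like cells, at 1.06 (0.16 to 1.99), and below 0 in GMP-like cells, at -0.75 (-1.46 to -0.16), and monocyte-like cells, at -0.57 (-1.16 to -0.05). Free RNA held 1.64 Slc11a2 UMIs per 10000 globin UMIs and control macrophage-like cells 1.03, so free RNA could hold all Slc11a2 UMIs there. Control dendritic-like, megakaryocyte-like, neutrophil-like and stromal-like cells were not above free RNA either. The levels of these classes and their ratios need not be those of expression.

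Steap3, the ferrireductase of the erythroid endosome, fell earlier in maturation than Tfrc and Slc11a2. It was highest under 15% hemoglobin, with 76.1 CPM (69.4 to 83.2) in the control and 105 CPM (97.7 to 113) in the DKO library. The next 2 stages held 45.7 and 10.6 CPM in the control and 56.5 and 16.9 CPM in the DKO library, and both late stages less than 1 CPM. DKO levels were higher in the lower 3 stages, with log2 ratios of 0.46 (0.30 to 0.63), 0.30 (0.05 to 0.57) and 0.67 (0.31 to 1.05). In the late stages, Steap3 had 16 control and 5 DKO UMIs at 75 to 90% and 7 control and 5 DKO UMIs at 90% or more, for ratios of -0.78 (-2.76 to 0.56) and -1.97 (-4.04 to -0.17). In control classes Steap3 came, in CPM and falling order, to 24.7 in macrophage-like, 24.2 in cKit+ progenitor-like, 15.4 in stromal-like, 14.4 in basophil or mast-like, 12.1 in monocyte-like, 11.8 in GMP-like, 6.87 in T or NK cell-like, 6.58 in B cell-like, 4.90 in megakaryocyte-like, 3.22 in dendritic-like and 1.01 in neutrophil-like cells, with the interval of each class overlapping that of the next. Steap3 in DKO classes came to 32.6 in cKit+ progenitor-like, 25.5 in stromal-like, 10.5 in monocyte-like, 8.98 in GMP-like, 7.31 in macrophage-like, 6.53 in B cell-like, 4.12 in dendritic-like, 3.18 in T or NK cell-like, 1.67 in megakaryocyte-like, 1.24 in basophil or mast-like and 0.409 in neutrophil-like cells, with the interval of each class overlapping that of the next. Both stages under 40% stood above every class without overlap. The class ratio had an interval below 0 in 3 of the 11 classes, macrophage-like at -1.54 (-3.48 to -0.38), basophil or mast-like at -2.63 (-8.93 to -0.85) and neutrophil-like at -1.20 (-2.69 to -0.05), on 5, 1 and 8 DKO UMIs, and above 0 in none.

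Slc25a37, or mitoferrin, brings iron into the mitochondria of red cell precursors, and it outlasted Tfrc. Its levels were 432, 1210.2, 1389, 527 and 346 CPM in the control and 481, 1164, 1628, 1017 and 559.9 CPM in the DKO library, with the peak at 40 to 75% hemoglobin in both and no overlap between the intervals of any pair of stages next to each other in that order. The log2 ratios of DKO over control were 0.15 (0.08 to 0.23), -0.06 (-0.11 to 0.00), 0.23 (0.20 to 0.26), 0.95 (0.91 to 0.99) and 0.69 (0.63 to 0.76). DKO cells with at least 75% hemoglobin thus held more Slc25a37, 1.93-fold at 75 to 90% on 10155 control and 11906 DKO UMIs and 1.62-fold at 90% or more on 2471 control and 11728 DKO UMIs. At 15 to 40% the interval ended just below 0, and the value turned to 0.12 with stage limits of 10, 35, 70 and 92% and to 0.41 counted per cell. Within bins of 2.5 points the late ratios were 0.84 and 0.81.

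Set against the mitochondrial importer, the receptor lost ground along maturation in both libraries. Tfrc made up 49.9%, 36.6%, 27.0%, 8.12% and 2.72% of the sum of Tfrc and Slc25a37 UMIs in the control stages and 56.3%, 44.0%, 30.7%, 11.1% and 1.23% in the DKO stages, a share that no scaling can move. In the control library the pair was level under 15% hemoglobin, at 49.9% (48.6 to 51.3%), while Tfrc led in the DKO library, at 56.3% (55.2 to 57.4%). In the highest stage the order of the libraries was the other way round, with 2.72% (2.12 to 3.43%) in the control and 1.23% (1.04 to 1.44%) in DKO cells. Dendritic-like cells had the highest Tfrc share, 77.2% (73.9 to 80.2%) in the control and 82.3% (78.6 to 85.5%) in DKO cells.

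All 5 erythroid-like stages held more Slc25a37 in CPM than any other class in both libraries. In control classes Slc25a37 came, in CPM and falling order, to 216 in stromal-like, 191 in macrophage-like, 140.1 in megakaryocyte-like, 104 in B cell-like, 74.9 in neutrophil-like, 64.1 in cKit+ progenitor-like, 57.9 in T or NK cell-like, 55.8 in basophil or mast-like, 51.5 in dendritic-like, 51.1 in monocyte-like and 43.4 in GMP-like cells, with overlapping intervals between neighbours except below macrophage-like, megakaryocyte-like and B cell-like cells. Slc25a37 in DKO classes came to 272 in macrophage-like, 174 in stromal-like, 113 in B cell-like, 86.8 in T or NK cell-like, 85.5 in basophil or mast-like, 81.7 in neutrophil-like, 60.4 in dendritic-like, 60.2 in cKit+ progenitor-like, 58.6 in megakaryocyte-like, 46.7 in GMP-like and 45.5 in monocyte-like cells, with overlapping intervals between neighbours except below macrophage-like, stromal-like, B cell-like and neutrophil-like cells. Hemoglobin transcripts took 22.3% of the UMIs of stromal-like and 16.2% of those of macrophage-like control cells, and 7.63% and 18.6% in the DKO library. In megakaryocyte-like cells they took 15.2% in the control and 6.57% in DKO cells. Free RNA held 38.9 Slc25a37 UMIs per 10000 globin UMIs and 0 of the 11 control classes held more, with 9.69 in stromal-like, 11.8 in macrophage-like and 31.6 in GMP-like cells, the highest. Free RNA could thus hold all Slc25a37 UMIs of these classes, and their levels are given without reading them as expression. Its part in the ratios could not be seen, since the DKO table holds called cells only. Of the 11 classes, 4 had a ratio with an interval above 0, T or NK cell-like at 0.58 (0.27 to 0.90), basophil or mast-like at 0.61 (0.10 to 1.13), macrophage-like at 0.51 (0.23 to 0.79) and neutrophil-like at 0.13 (0.02 to 0.23), and megakaryocyte-like cells had the only one below 0, at -1.23 (-1.82 to -0.73).

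Abcb10, an inner membrane transporter that stabilizes mitoferrin, followed Tfrc more closely than Slc25a37. Its levels were 425, 733, 503, 31.8 and 4.20 CPM in the control and 406, 766, 656, 95 and 3.20 CPM in the DKO stages. The log2 ratios of DKO over control were -0.07 (-0.14 to 0.01), 0.06 (0.00 to 0.13), 0.38 (0.33 to 0.44), 1.58 (1.43 to 1.72) and -0.42 (-1.04 to 0.28). The largest difference was again at 75 to 90%, 2.98-fold higher in DKO on 614 control and 1112 DKO UMIs, and the log2 ratio was 0.88 within bins of 2.5 points and 0.93 with stage limits of 10, 35, 70 and 92%. In the lowest 2 stages the intervals hold 0. Under 15% the sign turned with clusters at a resolution of 1, at 0.09, above the order-of-magnitude threshold, at 0.09, and counted per cell, at 0.66. At 90% or more there were 30 control and 67 DKO UMIs, and no difference was detectable at this depth. In control classes Abcb10 came, in CPM and falling order, to 49.4 in macrophage-like, 45.9 in basophil or mast-like, 37.1 in megakaryocyte-like, 35.1 in GMP-like, 34.0 in stromal-like, 31.3 in cKit+ progenitor-like, 22.7 in B cell-like, 16.5 in monocyte-like, 14.6 in neutrophil-like, 13.2 in dendritic-like and 11.1 in T or NK cell-like cells, with overlapping intervals between neighbours except below B cell-like cells. Abcb10 in DKO classes came to 88.2 in stromal-like, 54.1 in macrophage-like, 37.0 in GMP-like, 28.6 in monocyte-like, 27.3 in basophil or mast-like, 24.7 in dendritic-like, 24.5 in cKit+ progenitor-like, 19.4 in B cell-like, 16.7 in megakaryocyte-like, 15.6 in neutrophil-like and 11.6 in T or NK cell-like cells, with the interval of each class overlapping that of the next. The ratio had an interval above 0 in dendritic-like cells, at 0.91 (0.22 to 1.59), monocyte-like cells, at 0.79 (0.50 to 1.09), and stromal-like cells, at 1.37 (0.65 to 2.11), and below 0 in basophil or mast-like and megakaryocyte-like cells, on 22 and 10 DKO UMIs. Of the 11 control classes only basophil or mast-like, cKit+ progenitor-like and GMP-like cells held more Abcb10 per globin UMI than free RNA. In the others, with dendritic-like, monocyte-like, stromal-like and macrophage-like cells among them, free RNA could hold all Abcb10 UMIs. The order of these levels and their ratios need not be those of expression.

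**Figure D1:**
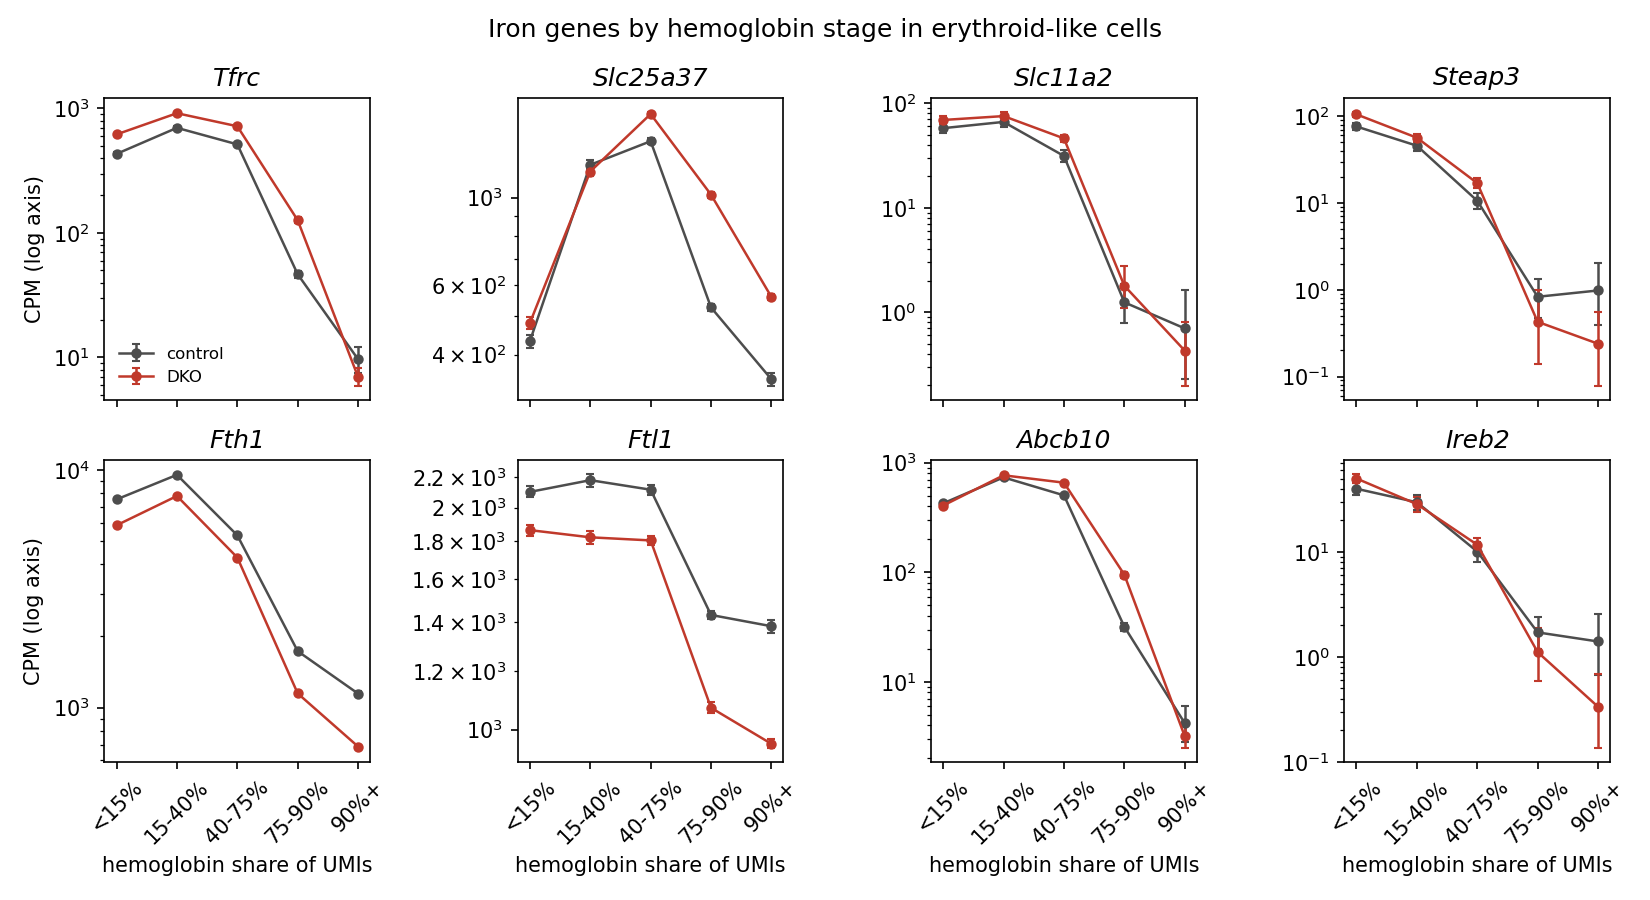
Level of each of the 8 genes (CPM, log axis) in erythroid-like cells by the share of hemoglobin UMIs, in the control (grey) and DKO (red) library, with 95% counting intervals as bars. Tfrc, Slc11a2, Steap3, Abcb10 and Ireb2 fell steeply after 75%, while Slc25a37 and Ftl1 stayed at 346 and 1381 CPM in the highest control stage.

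Ferritin transcripts were lower in DKO cells in every erythroid-like stage when scaled to all UMIs, and for Ftl1 in all 5 stages and Fth1 in the 4 under 90% hemoglobin the direction turned when counted per cell. Fth1, the heavy chain with ferroxidase activity, stood at 7505, 9519, 5299.8, 1728 and 1146 CPM in the control and 5842, 7756, 4277, 1148 and 686 CPM in the DKO stages and had more UMIs than any other of the 8 genes in every stage under 90%. Ftl1, the light chain, stood at 2101, 2179, 2115, 1430.3 and 1381 CPM in the control and 1864, 1823, 1805, 1070.3 and 956 CPM in the DKO stages. The Fth1 log2 ratios of DKO over control were -0.36 (-0.38 to -0.34), -0.30 (-0.31 to -0.28), -0.31 (-0.33 to -0.29), -0.59 (-0.62 to -0.56) and -0.74 (-0.78 to -0.70). Those of Ftl1 were -0.17 (-0.21 to -0.14), -0.26 (-0.30 to -0.22), -0.23 (-0.26 to -0.20), -0.42 (-0.45 to -0.39) and -0.53 (-0.56 to -0.49). On this scale both genes had intervals below 0 in all 5 stages, and the distance between libraries was wider in the late stages, reaching 1.67-fold for Fth1 and 1.44-fold for Ftl1 at 90% or more. For Fth1 the wider distance at 90% or more did not hold with stage limits of 10, 35, 70 and 92%, at -0.31, and shrank to -0.47 within bins of 2.5 points, both short of 1.5-fold. As UMIs per cell the Fth1 ratios were 0.37, 0.17, 0.38, 0.03 and -0.11 and the Ftl1 ratios 0.56, 0.20, 0.46, 0.20 and 0.10. This scale follows the mean UMIs of a cell, which were higher in DKO cells in all 5 stages. The median UMIs per cell were 1371, 7816, 6406, 5522 and 5139.5 in the control and 1608, 11297, 10614, 8298 and 7922 in DKO cells. Under 15% hemoglobin the medians differ by less than the ratios moved, and few cells carried most UMIs. Cluster 12 held 58.8% of the UMIs of that stage in each library, with 151 of 1009 control and 104 of 709 DKO cells. Whether DKO cells of a like kind held more UMIs there was not tested.

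The ferritin chains parted along maturation. Fth1 made up 78.1%, 81.4%, 71.5%, 54.7% and 45.3% of all ferritin UMIs in the control stages and 75.8%, 81.0%, 70.3%, 51.7% and 41.8% in the DKO stages, a share given with exact Clopper-Pearson intervals. The heavy chain thus led until 90% hemoglobin in both libraries and the light chain beyond it. The DKO share was lower in every stage, and the intervals overlapped only at 15 to 40%, with 81.4% (81.0 to 81.7%) and 81.0% (80.6 to 81.3%). At 90% or more the shares were 45.3% (44.6 to 46.1%) in the control and 41.8% (41.3 to 42.3%) in DKO cells. That last order did not hold within the stage. In bins of 2.5 points it came to 41.7% control and 42.6% DKO, and at 92% or more hemoglobin to 34.5% and 37.9%.

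Cell classes differed widely in this share. Dendritic-like cells, at 75.7% (75.1 to 76.3%) control and 76.4% (75.4 to 77.4%) DKO, came close to early erythroid-like cells, and B cell-like cells stood at 67.1% and 68.3%. Monocyte-like cells carried mostly light chain, with an Fth1 share of 37.6% (37.2 to 38.0%) control and 38.3% (37.8 to 38.9%) DKO. Macrophage-like cells lay between, at 56.3% (55.7 to 56.9%) and 60.2% (59.4 to 60.9%). The neutrophil-like share was 46.0% (45.6 to 46.5%) control and 49.6% (49.1 to 50%) DKO, and the basophil or mast-like share 55.9% (54.1 to 57.6%) and 46.8% (44.4 to 49.3%). Without overlap, the DKO share was thus higher in B cell-like, cKit+ progenitor-like, macrophage-like and neutrophil-like cells, 4 of the 11 classes, and lower in GMP-like and basophil or mast-like cells, as in most erythroid-like stages. The lowest share was 34.2% control and 27.9% DKO in the plasma cell-like class of 41 control and 53 DKO cells.

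**Figure D2:**
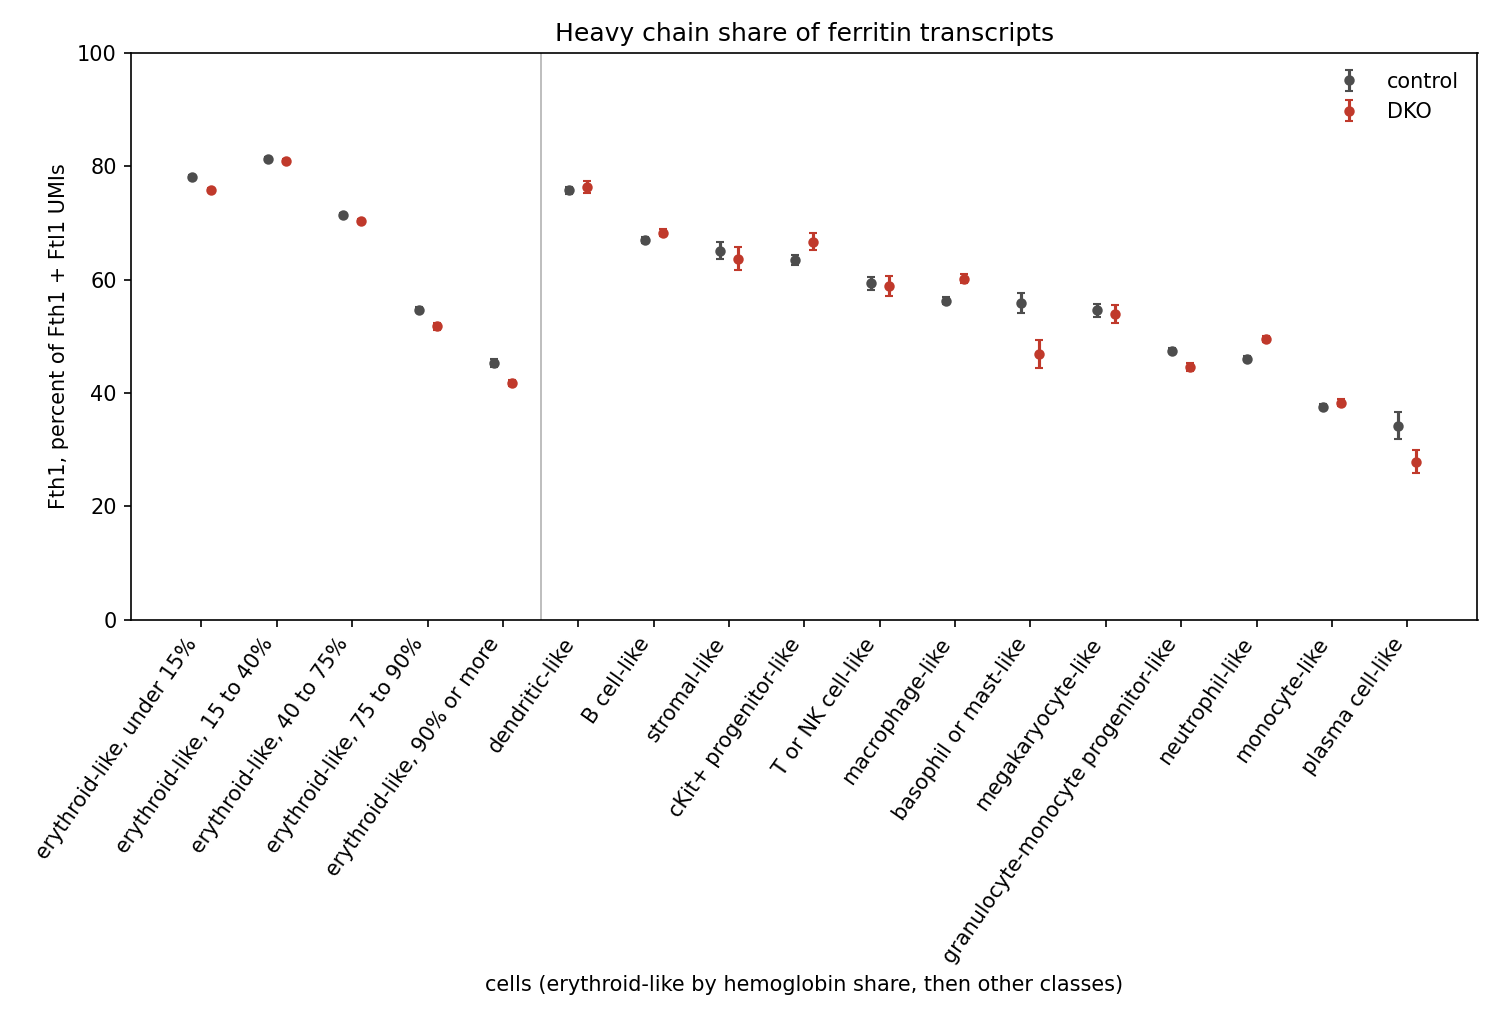
Fth1 UMIs as a percent of Fth1 plus Ftl1 UMIs in erythroid-like cells by hemoglobin share and in the other classes, in the control (grey) and DKO (red) library, with exact 95% intervals as bars. The share ran from 81.4% at 15 to 40% hemoglobin to 45.3% at 90% or more in the control library, and monocyte-like cells stood at 37.6%.

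Both ferritin chains were most abundant in macrophage-like cells, which take up old red cells and store their iron. Fth1 stood there at 12476 control and 14469 DKO CPM and Ftl1 at 9673 control and 9566 DKO CPM. In control classes Fth1 came, in CPM and falling order, to 12476 in macrophage-like, 4782 in dendritic-like, 2932 in stromal-like, 2920.4 in megakaryocyte-like, 2078 in B cell-like, 1895 in monocyte-like, 1878 in cKit+ progenitor-like, 1746 in GMP-like, 1575 in basophil or mast-like, 1360.4 in T or NK cell-like and 1256 in neutrophil-like cells, with overlapping intervals only between stromal-like and megakaryocyte-like and monocyte-like and cKit+ progenitor-like cells. Fth1 in DKO classes came to 14469 in macrophage-like, 3477 in megakaryocyte-like, 3404 in stromal-like, 3396 in dendritic-like, 1658 in B cell-like, 1655 in monocyte-like, 1398 in cKit+ progenitor-like, 1266 in GMP-like, 1137 in neutrophil-like, 928 in basophil or mast-like and 918 in T or NK cell-like cells, with overlapping intervals between neighbours except below macrophage-like, dendritic-like, monocyte-like, cKit+ progenitor-like, GMP-like and neutrophil-like cells. The 3 erythroid-like stages under 75% lay between macrophage-like cells and the rest of the 11 classes in both libraries, and the stage of 90% or more stood below all 11. In control classes Ftl1 came, in CPM and falling order, to 9673 in macrophage-like, 3143 in monocyte-like, 2428 in megakaryocyte-like, 1934 in GMP-like, 1569.7 in stromal-like, 1532 in dendritic-like, 1473 in neutrophil-like, 1243 in basophil or mast-like, 1080.0 in cKit+ progenitor-like, 1021 in B cell-like and 931 in T or NK cell-like cells, with overlapping intervals only between stromal-like and dendritic-like and dendritic-like and neutrophil-like cells. Ftl1 in DKO classes came to 9566 in macrophage-like, 2968 in megakaryocyte-like, 2663 in monocyte-like, 1937 in stromal-like, 1577 in GMP-like, 1158 in neutrophil-like, 1053 in basophil or mast-like, 1048 in dendritic-like, 771 in B cell-like, 698 in cKit+ progenitor-like and 641 in T or NK cell-like cells, with overlapping intervals only between basophil or mast-like and dendritic-like and cKit+ progenitor-like and T or NK cell-like cells. In Ftl1 the 3 lower stages lay below monocyte-like and megakaryocyte-like cells in both libraries.

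The lower ferritin level of DKO cells in CPM was not limited to the erythroid-like stages. Of the 11 other classes, Fth1 had an interval below 0 in 8 and above 0 in 3, and Ftl1 below 0 in 8, above 0 in 2 and across 0 in macrophage-like cells. The 8 lower classes were the same for both chains. Their Fth1 ratios ran from -0.76 (-0.89 to -0.64) in basophil or mast-like to -0.14 (-0.17 to -0.12) in neutrophil-like cells, and their Ftl1 ratios from -0.63 (-0.72 to -0.54) in cKit+ progenitor-like to -0.24 (-0.26 to -0.21) in monocyte-like cells. Basophil or mast-like cells had an Ftl1 ratio of -0.24 (-0.36 to -0.12). Fth1 was higher in DKO macrophage-like cells at 0.21 (0.18 to 0.25), megakaryocyte-like cells at 0.25 (0.17 to 0.33) and stromal-like cells at 0.22 (0.12 to 0.31). These 3 classes had the low medians of 899.5, 1292 and 1526 UMIs per control cell, and the part of depth was not tested. Counted per cell, 4 of the 8 lower classes turned higher in DKO for Fth1, which were B cell-like, cKit+ progenitor-like, dendritic-like and monocyte-like cells. For Ftl1 these and GMP-like and basophil or mast-like cells turned, 6 of the 8. Control T or NK cell-like, megakaryocyte-like and stromal-like cells were not above free RNA for Fth1. For Ftl1, control B cell-like, T or NK cell-like and stromal-like cells were not above it. The ferritin levels, shares and ratios of these classes need not be those of expression.

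Receptor and heavy chain, which carry iron-responsive elements at opposite ends of the transcript, were also set against each other. Tfrc made up 5.44%, 6.84%, 8.85%, 2.62% and 0.837% of the sum of Tfrc and Fth1 UMIs in the control and 9.58%, 10.6%, 14.4%, 9.92% and 1.01% in the DKO stages. The share was higher in DKO in every stage, by the widest margin at 75 to 90%, with 2.62% (2.46 to 2.80%) and 9.92% (9.45 to 10.4%). At 90% or more the intervals overlapped, with 0.837% (0.652 to 1.06%) and 1.01% (0.849 to 1.18%). The same pair in B cell-like cells stood at 2.81% (2.58 to 3.05%) control and 5.39% (5.04 to 5.75%) DKO, and in dendritic-like cells at 3.51% (3.23 to 3.81%) and 7.61% (6.92 to 8.36%). Of the 11 classes, these and cKit+ progenitor-like, GMP-like and monocyte-like cells had a higher share in DKO without overlap, and megakaryocyte-like cells a lower one, at 1.54% (1.19 to 1.95%) control and 0.431% (0.197 to 0.817%) DKO. In macrophage-like cells, at 0.804% and 0.762%, no difference was detectable at this depth. Of the classes named here, only dendritic-like and GMP-like cells were above free RNA for Tfrc in the control. The shares of the others need not be those of expression.

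Ireb2 encodes an iron regulatory protein whose amount is set largely by its degradation when iron is plentiful. Its transcript was scarce in erythroid-like cells and fell with maturation, from 40.1 CPM (35.3 to 45.4) in the control and 50.2 CPM (45.2 to 55.6) in the DKO library under 15% hemoglobin to 29.8, 10.1, 1.71 and 1.40 CPM in the later control and 28.6, 11.7, 1.11 and 0.334 CPM in the later DKO stages. The log2 ratios were 0.32 (0.09 to 0.56), -0.06 (-0.40 to 0.28), 0.21 (-0.18 to 0.62), -0.56 (-1.67 to 0.34) and -2.01 (-3.70 to -0.53). The interval lies above 0 under 15%, below 0 at 90% or more and holds 0 between. The highest stage had 10 control and 7 DKO UMIs, and the stage before it 33 control and 13 DKO UMIs. Without overlap, B cell-like cells held more Ireb2 than the lowest erythroid-like stage and GMP-like cells less in both libraries. In the DKO library alone, stromal-like cells held more and basophil or mast-like and megakaryocyte-like cells less. In control classes Ireb2 came, in CPM and falling order, to 53.8 in stromal-like, 50.9 in B cell-like, 46.3 in neutrophil-like, 44.7 in monocyte-like, 42.2 in T or NK cell-like, 39.6 in basophil or mast-like, 38.3 in dendritic-like, 37.5 in cKit+ progenitor-like, 34.2 in macrophage-like, 32.9 in megakaryocyte-like and 29.2 in GMP-like cells, with the interval of each class overlapping that of the next. Ireb2 in DKO classes came to 81.3 in stromal-like, 66.2 in B cell-like, 57.6 in dendritic-like, 56.1 in cKit+ progenitor-like, 52.9 in monocyte-like, 52.9 in neutrophil-like, 51.2 in macrophage-like, 36.5 in GMP-like, 36.0 in T or NK cell-like, 28.5 in basophil or mast-like and 23.4 in megakaryocyte-like cells, with the interval of each class overlapping that of the next. In 6 of the 11 other classes the Ireb2 ratio had an interval above 0, and in none was it below 0. The 6 were B cell-like at 0.38 (0.20 to 0.56), cKit+ progenitor-like at 0.58 (0.20 to 0.96), dendritic-like at 0.59 (0.17 to 1.0), GMP-like at 0.32 (0.09 to 0.55), monocyte-like at 0.25 (0.05 to 0.44) and neutrophil-like cells at 0.19 (0.07 to 0.32).

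The comparison of DKO with control asks which iron genes differ between the genotypes at a like stage. Under 15% hemoglobin 0 of the 8 genes were at least 1.5-fold higher or lower in DKO, where 3.20% of 5715 genes with a mean of at least 20 CPM were higher and 2.45% lower. At 15 to 40% the count was again 0 in either direction, beside 2.41% higher and 3.28% lower of 4183 genes. At 40 to 75% 1 gene was higher, Steap3, and 0 were lower, beside 13.1% higher and 5.78% lower of 2697 genes. At 75 to 90% Tfrc, Slc25a37 and Abcb10 were higher and Steap3 and Fth1 lower, 3 and 2 of the 8, beside 38.6% higher and 15% lower of 673 genes. At 90% or more Slc25a37 alone was higher and Slc11a2, Steap3, Fth1 and Ireb2 were lower, 1 and 4 of the 8, beside 13.8% higher and 30% lower of 320 genes. Counted per cell, where the higher depth of DKO cells enters, 6, 3, 6, 4 and 1 of the 8 genes were higher from the lowest to the highest stage and 0, 0, 0, 0 and 2 lower, beside 79.4%, 38.9%, 69.8%, 66.6% and 40.3% higher and 0.542%, 0.765%, 0.556%, 2.67% and 10.3% lower of all genes. Genes of few UMIs enter the counts, since 6, 5 and 3 of the 8 genes reached a mean of 20 CPM in the upper 3 stages. Those below it were Steap3 and Ireb2 from 40% on, Slc11a2 from 75% on, and Tfrc and Abcb10 at 90% or more. Among the genes counted as lower, the intervals of Steap3 at 75 to 90% and of Slc11a2 at 90% or more hold 0. The calls depend on the processing as well. At 75 to 90% the lower genes became 0 with only barcodes above an order-of-magnitude threshold of UMIs and 4 with median-of-ratios scaling, and Fth1 passed narrowly, at a log2 ratio of -0.59. With that scaling the counts were 0 higher at 40 to 75% and 2 lower at 90% or more.

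Many genes shifted together in the late stages. The median log2 ratio of all genes of at least 20 CPM was 0.10, 0.04, 0.11, 0.31 and -0.24 from the lowest to the highest stage, and the median of the 8 genes 0.21, 0.00, 0.31, 0.06 and -0.63. Relative to the median of all genes, Tfrc at 75 to 90% stood at 1.13, Abcb10 at 1.27, Slc25a37 at 0.64, Fth1 at -0.90 and Ftl1 at -0.73. At 90% or more Slc25a37 stood at 0.93, Fth1 at -0.50, Ftl1 at -0.29 and Tfrc at -0.24 relative to it. The directions of these genes were the same as before. Counted per cell, 15 of the 40 ratios changed sign, which were those of Fth1 in the 4 stages under 90%, Ftl1 in all 5, Ireb2 at 15 to 40% and 75 to 90%, Abcb10 under 15% and at 90% or more, Slc25a37 at 15 to 40% and Tfrc at 90% or more. Scaling to UMIs other than hemoglobin shifted every ratio by -0.11 at 75 to 90% and 0.18 at 90% or more, where Fth1 then stood at -0.70 and -0.56, Ftl1 at -0.53 and -0.35, and Slc25a37 at 0.84 and 0.87. The counts were then 3 higher and 3 lower at 75 to 90%, beside 34.5% and 19.3% of all genes, and 1 higher and 3 lower at 90% or more, beside 20.6% and 26.9%.

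**Figure D3:**
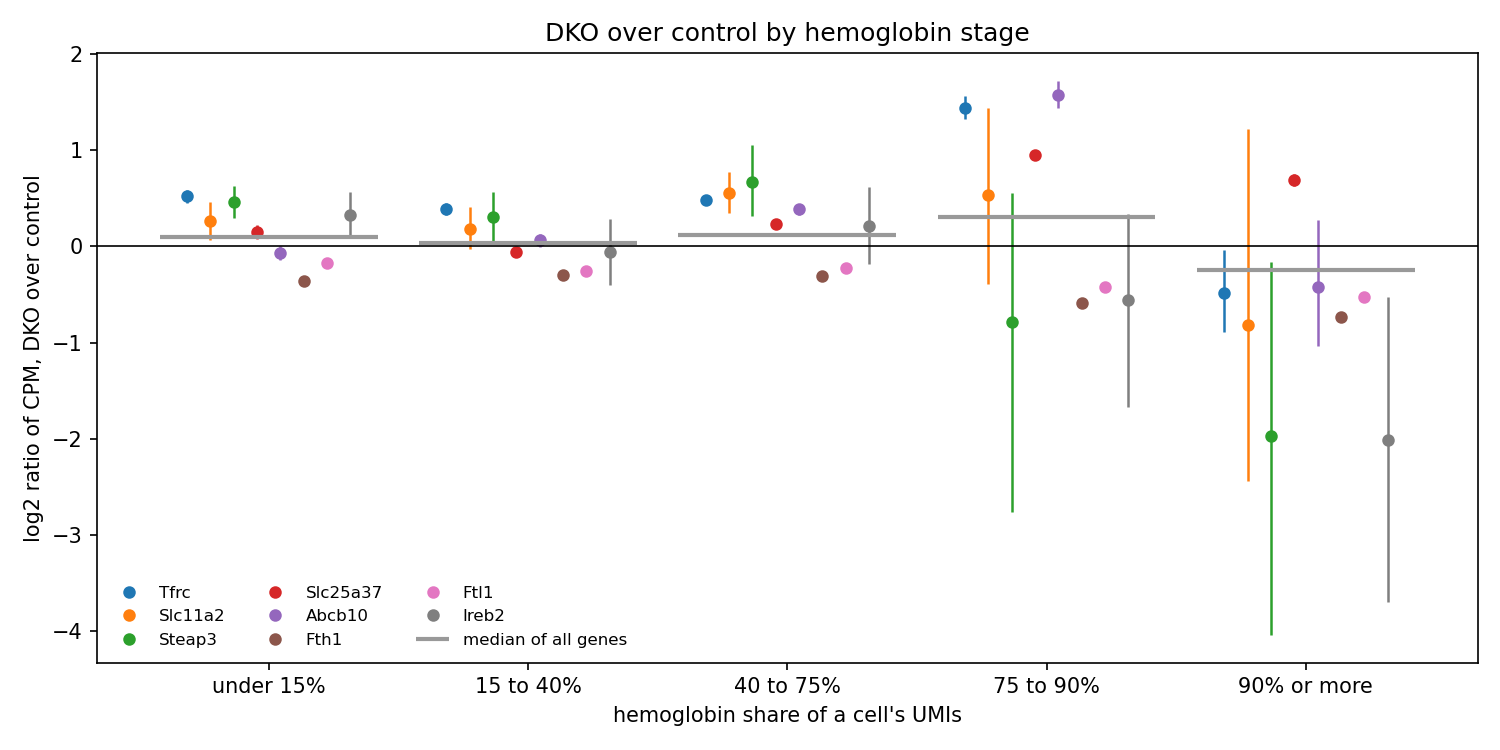
Log2 ratio of CPM, DKO over control, for each of the 8 genes by hemoglobin stage of erythroid-like cells, with 95% counting intervals as vertical lines and the median of all genes of at least 20 CPM as grey bars. At 75 to 90% Tfrc, Abcb10 and Slc25a37 lie above the median of 0.31 and Fth1 and Ftl1 below it, and at 90% or more Slc25a37 alone lies above 0, while counted per cell Ftl1 lies above 0 in all 5 stages and Fth1 in 4.

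RNA of other cells differed between the libraries alongside these results. The 8 neutrophil marker genes, all detected in every stage, summed to 2651, 1104, 954, 904 and 749.6 CPM in the control and 886, 1054, 622, 404 and 310.1 CPM in the DKO stages, with S100a9 the most abundant. The 7 macrophage marker genes, also all detected, summed to 55.6, 38.6, 44.8, 21.6 and 16.4 CPM in the control and 21.4, 10.1, 14.9, 10.5 and 4.77 CPM in the DKO stages. Both lists were lower in DKO, as the ferritin genes were. So were the other lists of cells outside the erythroid line in every stage, except under 15% those of plasma cells, at 23.3 control and 237 DKO CPM, of cKit+ progenitors, at 222 control and 266 DKO CPM, and of dendritic cells, at 55.5 control and 59.7 DKO CPM, and at 15 to 40% that of dendritic cells, at 19.4 control and 19.7 DKO CPM. The part of such RNA in the results was not tested. Free RNA could be read in the control library only, from barcodes of at most 100 UMIs, where Fth1 stood at 3697, Ftl1 at 2117, Slc25a37 at 565, Tfrc at 212, Abcb10 at 125, Ireb2 at 46.6, Slc11a2 at 23.8 and Steap3 at 18.9 CPM. The marker list that bounds it most tightly in each stage allows free RNA at most 5.73% of the Fth1, 2.72% of the Ftl1 and 2.90% of the Slc25a37 UMIs of the highest control stage. For the scarce genes it allows much more there, 38.8% for Tfrc, 52.9% for Abcb10, 59.1% for Ireb2, 60.3% for Slc11a2 and 34.2% for Steap3. At 75 to 90% it allows 11.1% for Tfrc, 9.57% for Abcb10, 46.6% for Slc11a2, 55.4% for Steap3 and 66.3% for Ireb2. In the other classes the ratio to globin UMIs sets a looser bound. It exceeded that of free RNA in 6 of the 11 control classes for Slc11a2, 5 for Steap3, 3 for Abcb10 and 8 each for Fth1, Ftl1 and Ireb2. Stromal-like cells exceeded it for 0 of the 8 genes and megakaryocyte-like cells only for Ftl1, so free RNA could hold all UMIs of the other genes there.

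Most of these genes changed more along maturation than between the genotypes. Between the lowest and the highest stage, 6 of the 8 genes were at least 2-fold lower in the control and 6 in DKO cells, and 0 were 2-fold higher, beside 97.6% lower and 0.647% higher of all genes in the control and 97.3% and 0.771% in the DKO library. A fall of CPM is the rule here, since hemoglobin fills most of the late UMIs, and the median log2 change of all genes was -5.55 in the control and -6.84 in DKO cells. Tfrc changed by -5.46 (-5.85 to -5.14) and -6.46 (-6.72 to -6.23), close to these medians. Slc25a37 changed by less than 2-fold, -0.32 (-0.40 to -0.24) in the control and 0.22 (0.17 to 0.27) in DKO cells. The direction turned to 0.35 in the control with only barcodes above an order-of-magnitude threshold. In the DKO library it turned to -0.62 with clusters at a resolution of 1 and -0.14 as UMIs per cell. The size depended on the setting too. It came close to 2-fold in the control at a resolution of 1 and in DKO cells above that threshold. Ftl1 changed by -0.61 (-0.64 to -0.57) and -0.96 (-0.99 to -0.93), and Fth1 by -2.71 (-2.75 to -2.68) and -3.09 (-3.12 to -3.06). The steepest falls were those of Abcb10 in the control, -6.61 (-7.23 to -6.14), and of Steap3 in the DKO library, -8.52 (-10.41 to -7.55), the second with 5 UMIs left.

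Scaled to UMIs other than hemoglobin, Slc25a37 and Ftl1 stood apart. On this scale Slc25a37 and Ftl1 were at least 2-fold higher in the highest than in the lowest stage in both libraries, where 5.46% of all genes were so in the control and 5.35% in DKO cells, and 5 of the 8 genes were at least 2-fold lower, beside 80.9% control and 86.0% DKO of all genes. Slc25a37 rose by 3.20 and 3.92 and Ftl1 by 2.91 and 2.74 on the log2 scale. Fth1 turned from lower to higher, with 0.80 and 0.61, short of 2-fold. In the DKO library Fth1 was highest at 15 to 40%, at 10865 CPM of such UMIs against 9283 at 90% or more. The Slc25a37 level went from 451 to 4136 CPM of such UMIs in the control and from 499.9 to 7573 in the DKO library. Ftl1 stood at 16490.4 CPM in the highest control stage and 12935 CPM in the highest DKO stage. Tfrc and Abcb10 peaked at 40 to 75% on this scale, Tfrc at 1247 control and 1713 DKO CPM.

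In the other classes the count of the 8 genes past 1.5-fold differed widely. All 8 genes entered it at any level, while the shares beside it are of genes with a mean of at least 20 CPM. Genes below that mean were among those past the fold. Examples are Steap3 in neutrophil-like cells, at 1.01 control and 0.409 DKO CPM, and Slc11a2 in GMP-like cells, at 6.76 control and 3.91 DKO CPM. It was 1 higher and 0 lower in B cell-like cells, beside 2.18% and 1.37% of all genes, 3 higher and 0 lower in dendritic-like cells, beside 10.3% and 3.65%, and 1 higher and 0 lower in monocyte-like cells, beside 4.17% and 1.95%. Stromal-like cells had 5 higher and 0 lower, beside 31.8% and 5.73%, on 259 control and 109 DKO cells, and 3 of the 5 (Slc11a2, Steap3 and Ireb2) have intervals that hold 0. Megakaryocyte-like cells had 0 higher and 5 lower, of which Slc11a2 and Steap3 rest on 1 DKO UMI each with intervals that hold 0, beside 16.7% and 10.8%, and basophil or mast-like cells 1 higher and 4 lower, beside 10.4% and 8.35%. Macrophage-like cells had 2 higher, Ireb2 with an interval that holds 0, and 1 lower, beside 8.67% and 8.97%. In the remaining 4 classes 0 were higher and 1 was lower, beside 10.00% and 6.31% in T or NK cell-like, 3.07% and 3.36% in cKit+ progenitor-like, 5.60% and 1.26% in GMP-like and 5.74% and 1.41% in neutrophil-like cells, and the interval of the T or NK cell-like gene, Steap3, holds 0.

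Of 45 other genes of iron handling in 5 lists, 25 reached 20 CPM under 15% hemoglobin, of which 1 was at least 1.5-fold higher in DKO and 1 lower, beside 3.20% and 2.45% of all genes. Those were Slc39a8, a metal importer of the cell surface, at 40.6 control and 64.5 DKO CPM, and Hmox1, which breaks down heme, at 38.5 control and 18.5 DKO CPM. At 15 to 40% the counts were 0 higher and 0 lower of 20, beside 2.41% and 3.28% of all genes, and at 40 to 75% 0 and 2 of 18, beside 13.1% and 5.78%. At 75 to 90% they were 1 and 0 of 10, beside 38.6% and 15%, and at 90% or more 0 and 0 of 8, beside 13.8% and 30%. Hmox1 lay below the control in all 5 stages, with log2 ratios of -1.06, -1.32, -1.0, -0.71 and -1.06, although it passed 20 CPM in the lowest stage only. Free RNA of macrophage-like cells, whose marker genes were lower in DKO as well, was not set apart from it. Of the 7 regulators on the lists, Aco1 and Fbxl5, chosen after their values were seen, reached 20 CPM under 15%, and 0 did in any later stage.

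The mitochondrial iron and iron-sulfur cluster list had a median ratio of -0.18, -0.28, -0.37, -0.08 and -0.38 from the lowest to the highest stage, over the 10, 10, 9, 5 and 5 of its 13 genes that reached 20 CPM. Medians of all genes stood at 0.10, 0.04, 0.11, 0.31 and -0.24. The cluster scaffold gene Iscu stood at 154 control and 71.7 DKO CPM at 40 to 75%, a log2 ratio of -1.10 (-1.23 to -0.98), and below 0 in every stage, with -0.37, -0.56, -1.10, -0.52 and -0.38. The co-chaperone gene Hscb stood at 219.8 control and 146 DKO CPM in the same stage, with -0.59 (-0.69 to -0.50), and the later assembly genes Isca1 and Isca2 at -0.53 (-0.64 to -0.43) and -0.47 (-0.63 to -0.31). Glrx5, the most abundant of them with Tmem14c, had 1256 control and 1060.1 DKO CPM and a ratio of -0.24 (-0.28 to -0.21). Tmem14c, which moves a heme precursor across the inner membrane, stood at 1465 control and 1106 DKO CPM under 15%, with -0.41 (-0.45 to -0.36), and Slc25a39 at -0.37 (-0.45 to -0.30) at 40 to 75%.

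The uptake and endosome list had medians of 0.39, 0.10 and 0.45 in the lower 3 stages, over 5, 4 and 3 of 12 genes. Exoc6, which takes part in recycling of transferrin receptor vesicles, stood at 94.9 control and 125 DKO CPM under 15%, with log2 ratios of 0.39, 0.45 and 0.48 in those stages. Vps35 had 0.22, 0.18 and 0.45 and Snx3, a sorting factor for the receptor, -0.01, 0.01 and 0.08. From 75% on Exoc6 and Vps35 had at most 59 UMIs in a stage, and the Vps35 ratio fell to -1.93 (-2.98 to -0.94) at 90% or more. Among storage partners, the iron chaperone genes Pcbp1 and Pcbp2 had 0.23, 0.22 and 0.46 and 0.34, 0.14 and 0.27. At 75 to 90% both lay below 0, at -1.12 (-1.57 to -0.72) on 217 control and 60 DKO UMIs and at -0.33 (-0.58 to -0.09), and at 90% or more at -1.29 (-1.83 to -0.73) and -0.78 (-1.10 to -0.45). Ncoa4, which delivers ferritin for breakdown, rose with maturation, from 49.9 control and 57.7 DKO CPM under 15% to 231 control and 289.9 DKO CPM at 75 to 90%, with a log2 ratio of 0.33 (0.26 to 0.39) there. Of the export and heme list, Abcg2, an exporter of heme precursors, was the gene past 1.5-fold at 75 to 90%, at 14.2 control and 40.7 DKO CPM and 1.51 (1.30 to 1.74). The heme transporter gene Slc48a1 had ratios of 0.05, -0.06, -0.27, -0.12 and -0.25.

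Likeness of pattern was taken as Pearson's r of log2 levels (5 CPM added) over 32 points, the 5 stages and 11 classes of both libraries. The points share libraries and differ in depth and hemoglobin content, so r is a description without a test. Among 5110 other genes, those most like Tfrc were Zdhhc14 (0.931), Psmf1 (0.904) and Pigq (0.897). Among those most like Slc25a37 were Fech (0.985) and Trim10 (0.971). Fth1 had looser neighbours, Hs6st1 (0.845), Hebp1 (0.824) and Cyb5a (0.818), and Ireb2 was most like Cpne1 (0.975), Zfc3h1 (0.973) and Cspp1 (0.973). Among the 8 genes, the highest r was 0.889 between Tfrc and Abcb10, followed by 0.821 between Slc11a2 and Steap3, while Fth1 and Ftl1 had 0.723 and Slc25a37 and Ireb2 -0.565.

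The 8 genes lie on 8 chromosomes of GRCm38 in the GENCODE M21 annotation. Those of uptake are Tfrc (ENSMUSG00000022797) at chr16:32608920-32632794 on the plus strand, Slc11a2 (ENSMUSG00000023030) at chr15:100387898-100425072 on the minus strand and Steap3 (ENSMUSG00000026389) at chr1:120190757-120272705 on the minus strand. Those of mitochondrial import are Slc25a37 (ENSMUSG00000034248) at chr14:69241848-69285112 on the minus strand and Abcb10 (ENSMUSG00000031974) at chr8:123952459-123983122 on the minus strand. Those of storage and regulation are Fth1 (ENSMUSG00000024661) at chr19:9980598-9985098 on the plus strand, Ftl1 (ENSMUSG00000050708) at chr7:45457944-45459884 on the minus strand and Ireb2 (ENSMUSG00000032293) at chr9:54863789-54912530 on the plus strand. In the last 300 bases of their transcripts, where the UMIs are counted, Tfrc, Slc11a2, Steap3, Abcb10 and Ireb2 share 0 stretches of 31 bases with any other gene. Slc25a37 shares 270 of 540 with the gene Gm16867, which was counted with 1411 control and 2412 DKO UMIs in erythroid-like cells beside 32123 and 54861 of Slc25a37. Ftl1 shares 385 of 433 with 28 genes, of which Ftl1-ps1 had 615 and 593 UMIs beside 77745 and 79943 of Ftl1, and Fth1 shares 116 of 702 with the 3 pseudogenes Fth-ps2, Fth-ps3 and Gm6977. How many UMIs these shared ends moved between genes was not tested.

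Iron-responsive elements join Tfrc and the ferritin genes by sequence, and their sites are printed because they set the opposite regulation of uptake and storage that the background describes. A site was searched as C, 5 bases, the loop CAGTGN and 5 bases that pair with the first 5, 17 bases in all, on the transcript strand of the untranslated regions (UTRs) of coding transcripts (GRCm38, GENCODE M21). Of the 8 genes 3 hold such a site, Tfrc with 4 in the 3' UTR and Fth1 and Ftl1 with 1 each in the 5' UTR. Over all genes, 31 of 20916 with a 5' UTR (0.148%) and 129 of 21707 with a 3' UTR (0.594%) hold a match. The sites follow with 5 bases on either side, 5' to 3', with the loop in capitals, where Ftl1 is on the minus strand and the others on the plus strand.
Tfrc site 1 chr16:32631220-32631246: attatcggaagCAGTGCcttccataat
Tfrc site 2 chr16:32631599-32631625: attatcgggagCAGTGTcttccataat
Tfrc site 3 chr16:32631664-32631690: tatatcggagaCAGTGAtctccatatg
Tfrc site 4 chr16:32631711-32631737: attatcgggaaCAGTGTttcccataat
Fth1 site chr19:9982733-9982759: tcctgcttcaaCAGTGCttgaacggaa
Ftl1 site chr7:45459780-45459806: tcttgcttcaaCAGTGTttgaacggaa
The Tfrc sites lie in 1 of 3 coding transcripts, the Fth1 site in 4 of 5 and the Ftl1 site in 1 of 2. Of the 45 other iron genes 2 hold a match, Slc40a1, the iron exporter, and the pseudogene Ftl1-ps1. A match describes these letters and does not show that a protein binds there, and no match was found in Ireb2, Slc25a37, Slc11a2, Steap3 or Abcb10 in the searched form.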

How the data were processed

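Per the file headers the deposited tables hold raw UMI counts made by the authors with Cell Ranger 7.1.0 on mm10, and whether intronic reads were counted is not stated. The control table holds all barcodes, so cells were called by an order-of-magnitude threshold from the top 3000 barcodes (99th percentile) and a test of smaller barcodes against those of at most 100 UMIs (at least 500 UMIs, false discovery rate 0.01, 10000 iterations), and the DKO table holds called cells only. Cells with over 20% mitochondrial UMIs and doublets above a shared score of 0.226 were left out. Scanpy 1.11.5 and igraph 0.11.9 clustered the cells on 2000 variable genes without the 8 genes, Ddx41 and Cgas (30 components, 15 neighbors, Leiden resolution 2). A resolution of 1 was tried first and left after the cluster names, before the levels of the 8 genes, were seen. Clusters were named from marker lists. UMIs were summed per stage or class with numpy 2.4.6 and scipy 1.17.1 in Python 3.11.15, and ratios compared with all genes of at least 20 CPM on average outside the globin genes. Classes needed 50 cells in each library. The 8 genes, the marker lists and the iron lists were chosen with earlier results of these data known. Named genes are the 8, other iron genes past 1.5-fold (from 20 CPM) or of at least 100 CPM in a stage, the 3 most alike in pattern, the stage check genes, Ddx41 and Cgas, and others (S100a9, genes sharing 3' ends or sites, Aco1 and Fbxl5) were chosen after their values were seen. Some genes under this rule are not reported here. Alternatives varied cell calling, doublets, the mitochondrial limit, stage limits, scaling, fold and minimum, and, chosen after seeing the data, the resolution, low-UMI clusters and an unnamed cluster.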

Additional observations from a re-analysis of the deposited data

Results flagged for a closer look

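The ratios of DKO over control pointed in different directions in different stages for 4 of the 8 genes, each with counting intervals on opposite sides of 0. Tfrc had a log2 ratio of 1.44 at 75 to 90% hemoglobin and -0.48 at 90% or more, the second on 69 control and 146 DKO UMIs, and counted per cell the second turned to 0.15. For Slc25a37 the values were 0.95 at 75 to 90% and -0.056 at 15 to 40%, and the second turned to 0.12 with stage limits of 10, 35, 70 and 92% and to 0.41 counted per cell. Steap3 stood at 0.67 at 40 to 75% and at -1.97 at 90% or more, the latter on 7 control and 5 DKO UMIs. Ireb2 stood at 0.32 under 15% and at -2.01 at 90% or more, the latter on 10 control and 7 DKO UMIs. With 1 library per genotype, the difference between stages was not tested for any of them.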

How the results depend on the processing

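The choices varied were which barcodes and clusters count as cells, where the limits between stages lie, how UMIs are scaled, and which fold and minimum level are used. Clusters at a resolution of 1, the cells without low-UMI clusters and the cells with the unnamed high-hemoglobin cluster were chosen after seeing the data. Each setting was changed alone. Unless a setting's own construction is named, the cause of a change was not tested.

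With control barcodes of at least 500 UMIs, with mitochondrial UMIs of at most 10%, and with the unnamed high-hemoglobin cluster, 0 of the 40 ratios of DKO over control changed sign, and the ratios, shares, levels and counts stayed within their counting intervals or within 1.5 times the count. With the unnamed cluster, however, 2 ratios at 75 to 90% crossed the fold, Slc11a2 at 0.65 and Ireb2 at -0.63, so the count became 4 higher and 3 lower. Crossings of the fold in either direction numbered 2 at a resolution of 1, within bins, with other stage limits and scaled without hemoglobin, 4 above the order-of-magnitude threshold, 5 with median-of-ratios scaling and 19 per cell. With no doublets left out, the log2 ratios of DKO over control became -0.32 for Fth1 at 15 to 40%. The Fth1 share of ferritin UMIs became 81.0% control and 80.3% DKO at 15 to 40%. Without the clusters of low UMIs, the log2 ratios of DKO over control became -0.39 for Fth1 under 15%. The Fth1 share of ferritin UMIs became 78.7% control under 15%. The log2 ratios of the highest over the lowest stage became -0.21 for Slc25a37 in the control, and 0.33 for Slc25a37 in DKO cells.

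With barcodes above the order-of-magnitude threshold only, the log2 ratios of DKO over control became -0.39 for Fth1 and 0.085 for Abcb10 under 15%, -0.36 for Fth1 at 40 to 75%, and 0.064 for Slc11a2 and -0.88 for Fth1 at 90% or more. The count of the 8 genes past the fold became 0 lower at 75 to 90%. The share of all genes past the fold became 9.01% higher at 90% or more. The Fth1 share of ferritin UMIs became 78.8% control under 15%, 72.0% control at 40 to 75%, and 48.9% control and 42.4% DKO at 90% or more. Along maturation, the log2 ratios of the highest over the lowest stage became -5.04 for Tfrc, 0.35 for Slc25a37, -2.65 for Fth1, -0.69 for Ftl1 and -5.87 for Abcb10 in the control, and -6.11 for Tfrc, 0.88 for Slc25a37, -3.14 for Fth1 and -1.03 for Ftl1 in DKO cells. Signs changed in 2 ratios, Slc11a2 at 90% or more, on few UMIs, and Abcb10 under 15%, while 35 of the 40 ratios and 31 other values stayed within their counting interval.

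With clusters at a resolution of 1, the log2 ratios of DKO over control became 0.64 for Tfrc, 0.35 for Slc25a37 and 0.093 for Abcb10 under 15%. The count of the 8 genes past the fold became 1 higher under 15%. The share of all genes past the fold became 3.70% lower under 15%. The Fth1 share of ferritin UMIs became 79.5% control and 77.6% DKO under 15%. Between the lowest and the highest stage the log2 change became -5.98 for Tfrc, -0.96 for Slc25a37, -2.92 for Fth1 and -0.70 for Ftl1 in the control, and -7.06 for Tfrc, -0.62 for Slc25a37, -3.29 for Fth1, -1.02 for Ftl1 and -7.68 for Abcb10 in DKO cells. The ratio of Abcb10 was the 1 to change sign, while 37 of the 40 ratios and 33 other values stayed within their counting interval.

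With stage limits of 10, 35, 70 and 92%, which put other cells into each stage (named here by the usual limits), the log2 ratios of DKO over control became -0.34 for Fth1 under 15%, 0.49 for Tfrc, 0.12 for Slc25a37 and -0.34 for Fth1 at 15 to 40%, 0.42 for Tfrc, 0.15 for Slc25a37 and 0.31 for Abcb10 at 40 to 75%, 0.97 for Tfrc, 0.78 for Slc25a37, -0.64 for Fth1 and 0.93 for Abcb10 at 75 to 90%, and -0.31 for Fth1 at 90% or more. The share of all genes past the fold became 6.97% higher at 40 to 75%, and 21.5% higher at 90% or more. The Fth1 share of ferritin UMIs became 77.5% control and 75.3% DKO under 15%, 81.9% control at 15 to 40%, 73.8% control and 72.8% DKO at 40 to 75%, and 34.5% control and 37.9% DKO at 90% or more. The control CPM became 394 for Tfrc, 364 for Slc25a37, 7135 for Fth1 and 387 for Abcb10 under 15%, 1070.1 for Slc25a37, 56.7 for Steap3, 9854 for Fth1 and 703 for Abcb10 at 15 to 40%, 580.5 for Tfrc, 1431 for Slc25a37, 40.3 for Slc11a2, 14.6 for Steap3, 6314 for Fth1, 2244 for Ftl1, 587 for Abcb10 and 14.2 for Ireb2 at 40 to 75%, 57.6 for Tfrc, 542 for Slc25a37 and 44.4 for Abcb10 at 75 to 90%, and 6.94 for Tfrc, 299 for Slc25a37, 716 for Fth1 and 2.60 for Abcb10 at 90% or more. The DKO CPM became 553 for Tfrc, 389 for Slc25a37, 5641 for Fth1 and 359 for Abcb10 under 15%, 975 for Tfrc and 66.3 for Steap3 at 15 to 40%, 778 for Tfrc, 1588 for Slc25a37, 57.4 for Slc11a2, 23.1 for Steap3, 5039 for Fth1, 1881 for Ftl1, 726 for Abcb10 and 14.6 for Ireb2 at 40 to 75%, 113 for Tfrc, 931 for Slc25a37, 1108 for Fth1 and 84.6 for Abcb10 at 75 to 90%, and 4.07 for Tfrc, 492 for Slc25a37 and 579.8 for Fth1 at 90% or more. The change from the lowest to the highest stage became, in log2, -5.05 for Slc11a2 and -3.32 for Fth1 in the control, and -7.06 for Tfrc, 0.34 for Slc25a37 and -3.28 for Fth1 in DKO cells. Slc25a37 and Ireb2 at 15 to 40% were the 2 ratios to change sign, while 28 of the 40 ratios and 68 other values stayed within their counting interval.

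Within bins of 2.5 points of hemoglobin, the log2 ratios of DKO over control became 0.25 for Slc25a37 and -0.34 for Fth1 under 15%, -0.35 for Fth1 at 40 to 75%, 0.91 for Tfrc, 0.84 for Slc25a37, -0.65 for Fth1 and 0.88 for Abcb10 at 75 to 90%, and 0.81 for Slc25a37 and -0.47 for Fth1 at 90% or more. The share of all genes past the fold became 24.4% higher at 90% or more. The Fth1 share of ferritin UMIs became 41.7% control and 42.6% DKO at 90% or more. No ratio changed sign within bins, and 31 of the 40 ratios and 27 other values stayed within their counting interval.

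Counted per cell, which moves all genes of a stage by the same amount, the log2 ratios of DKO over control became 1.25 for Tfrc, 0.89 for Slc25a37, 0.99 for Slc11a2, 1.2 for Steap3, 0.37 for Fth1, 0.56 for Ftl1, 0.66 for Abcb10 and 1.06 for Ireb2 under 15%, 0.85 for Tfrc, 0.41 for Slc25a37, 0.65 for Slc11a2, 0.76 for Steap3, 0.17 for Fth1, 0.20 for Ftl1, 0.52 for Abcb10 and 0.40 for Ireb2 at 15 to 40%, 1.17 for Tfrc, 0.92 for Slc25a37, 1.25 for Slc11a2, 1.36 for Steap3, 0.38 for Fth1, 0.46 for Ftl1, 1.08 for Abcb10 and 0.90 for Ireb2 at 40 to 75%, 2.06 for Tfrc, 1.57 for Slc25a37, 0.029 for Fth1, 0.20 for Ftl1 and 2.19 for Abcb10 at 75 to 90%, and 0.15 for Tfrc, 1.33 for Slc25a37, -0.11 for Fth1 and 0.10 for Ftl1 at 90% or more. The count of the 8 genes past the fold became 6 higher under 15%, 3 higher at 15 to 40%, 6 higher at 40 to 75%, 0 lower at 75 to 90%, and 2 lower at 90% or more. The share of all genes past the fold became 79.4% higher and 0.542% lower under 15%, 38.9% higher and 0.765% lower at 15 to 40%, 69.8% higher and 0.556% lower at 40 to 75%, 66.6% higher and 2.67% lower at 75 to 90%, and 40.3% higher and 10.3% lower at 90% or more. For the highest over the lowest stage the log2 ratios became -0.58 for Slc25a37, -2.97 for Fth1 and -0.86 for Ftl1 in the control, and -6.82 for Tfrc, -0.14 for Slc25a37, -3.44 for Fth1 and -1.32 for Ftl1 in DKO cells. Signs turned in 15 of the ratios, and 7 of the 40 ratios and 14 other values stayed within their counting interval.

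Scaled to UMIs other than hemoglobin, again by the same amount within a stage, the log2 ratios of DKO over control became -0.33 for Fth1 at 40 to 75%, 0.84 for Slc25a37, -0.70 for Fth1 and -0.53 for Ftl1 at 75 to 90%, and 0.87 for Slc25a37, -0.56 for Fth1 and -0.35 for Ftl1 at 90% or more. Maturation from the lowest to the highest stage then changed levels, in log2, by -1.94 for Tfrc, 3.20 for Slc25a37, -2.59 for Slc11a2, -2.57 for Steap3, 0.80 for Fth1, 2.91 for Ftl1, -3.10 for Abcb10 and -1.19 for Ireb2 in the control, and -2.76 for Tfrc, 3.92 for Slc25a37, -3.48 for Slc11a2, -4.82 for Steap3, 0.61 for Fth1, 2.74 for Ftl1, -3.26 for Abcb10 and -3.34 for Ireb2 in DKO cells. No ratio of DKO over control changed sign, while the change of Fth1 along maturation did in both libraries, and 33 of the 40 ratios and 20 other values stayed within their counting interval.

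With median-of-ratios scaling, which sets the median of all genes to 0 in each stage, the log2 ratios of DKO over control became 0.42 for Tfrc, 0.052 for Slc25a37, -0.46 for Fth1, -0.27 for Ftl1 and -0.17 for Abcb10 under 15%, -0.33 for Fth1 at 15 to 40%, 0.37 for Tfrc, 0.11 for Slc25a37, -0.42 for Fth1, -0.34 for Ftl1 and 0.27 for Abcb10 at 40 to 75%, 1.13 for Tfrc, 0.64 for Slc25a37, -0.90 for Fth1, -0.73 for Ftl1 and 1.27 for Abcb10 at 75 to 90%, and 0.93 for Slc25a37, -0.50 for Fth1 and -0.29 for Ftl1 at 90% or more. The count of the 8 genes past the fold became 0 higher at 40 to 75%, 4 lower at 75 to 90%, and 2 lower at 90% or more. The share of all genes past the fold became 1.24% higher under 15%, 7.53% higher at 40 to 75%, 25.4% lower at 75 to 90%, and 23.1% higher at 90% or more. With this scaling no ratio changed sign, and 21 of the 40 ratios and 13 other values stayed within their counting interval.

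With a fold of 2, which by construction lets fewer genes pass, the count of the 8 genes past the fold became 0 higher at 40 to 75%, 0 lower at 75 to 90%, and 0 higher and 2 lower at 90% or more. With a minimum of 5 CPM, where more genes of few UMIs are tested, the share of all genes past the fold became 5.04% higher and 5.19% lower under 15%, 4.95% higher and 7.02% lower at 15 to 40%, and 8.82% lower at 40 to 75%. With no minimum beyond 1 UMI, the share of all genes past the fold became 16.2% higher and 21.5% lower under 15%, 17.1% higher and 24.0% lower at 15 to 40%, 33.7% lower at 40 to 75%, 20.9% higher and 37.2% lower at 75 to 90%, and 3.12% higher and 66.3% lower at 90% or more.

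Across all settings, Tfrc kept a ratio above 0 in the 4 stages under 90%, Slc25a37 in the stages under 15% and from 40% on, and Steap3 in the 3 stages under 75%. Fth1 and Ftl1 kept ratios below 0 under every setting but UMIs per cell. Depth limits the late stages of Slc11a2, Steap3 and Ireb2, which held at most 33 UMIs in a stage of either library, so their directions there rest on few molecules. Free RNA could be measured in the control only. The control cells were called here and the DKO cells by the authors, and with 1 library per genotype the genotype and the library cannot be told apart.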
